A study of Sus scrofa with 28 samples.

Results

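Sterol synthesis genes were followed through the open chromatin of pig liver. The set held 8 genes, HMGCS1, IDI1, FDFT1, SQLE, LSS, CYP51, INSIG1 and SREBF2, of 19484 protein-coding genes that RefSeq places on the chromosomes of the peak list (build Sscrofa11.1). A peak was given to a gene when its centre lay inside the gene or within 1000 bp of either annotated end. Only 6 of the 8 could be followed. LSS lies on unplaced sequence in the RefSeq table, and IDI1 has no entry there under that symbol, so neither was analysed here. None of the 8 is a receptor or transporter of sterol uptake; uptake genes are given below from a longer list.

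Cholesterol is built from acetyl-CoA through mevalonate, isoprenoids, squalene and lanosterol, and the liver is a main site of this synthesis. In human and rodent cells the genes of the route are switched on together by SREBP transcription factors. When sterols are plentiful, INSIG proteins hold the SREBP precursors in the endoplasmic reticulum and the genes are less active. ATAC-seq reads out open chromatin with a transposase that inserts sequencing adapters where DNA is accessible. A peak marks accessible DNA and is not a measure of transcription.

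The livers came from female pigs of the Polish breed Zlotnicka White, aged 180 days and kept under common feeding and housing to a slaughter weight of about 100 kg. The 28 libraries form 4 groups of 7: high fat content 200, low fat content 200, high fat content 600 and low fat content 600, with no further reference group. The labels give neither the meaning of 200 and 600 nor the depot in which fat was measured, and shear force is the name of the tag that holds the fat groups. A 200 and a 600 library that share a title number were treated as a pair from the same animal. This is an assumption, because the labels name no animals. All 200 libraries carry one lane tag and all 600 libraries another, so label and lane cannot be told apart.

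The only measure of library yield is the number of listed peaks, since read depth is unknown. It ran from 205 to 17652 in high fat 200, from 196 to 8221 in low fat 200, from 39 to 6453 in high fat 600 and from 101 to 3775 in low fat 600. A gene without a listed peak is therefore not shown to be closed. As a check of the tissue label, 6 of 8 hepatocyte markers had a peak, HPX in 12 libraries and ALB in 7, while ASGR1 and ASGR2 had none. Since 61.6% of all protein-coding genes had a peak in at least 1 library, that count is a weak check. Of 9 endothelial and stellate markers 1 had a peak, of 9 macrophage markers 2 (CD14 in 6 libraries and MARCO in 5), of 4 cholangiocyte markers 0, of 7 lymphocyte markers 2 and of 4 erythroid markers 1.

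All 6 placed genes had listed peaks, in 6 to 16 of 28 libraries. HMGCS1 led with 16, followed by FDFT1 with 13, SQLE and CYP51 with 11 each, INSIG1 with 10 and SREBF2 with 6. Of all protein-coding genes, 61.6% were listed in at least 1 library, and 68.9% of those with a gene symbol. In at least 6 libraries, which all 6 genes reached, 22.4% of protein-coding genes were listed, or 25.5% of those with a symbol. At least 10 libraries listed 5 of the 6, against 9.64% of protein-coding genes. The median over the 6 genes was 11 libraries, beside a median of 4 over all protein-coding genes with any peak. These shares describe the genes only, because the set was drawn up with earlier results of these libraries known.

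The windows of the 6 genes held 83 peaks, and 69 of them (83.1%) lay within 1000 bp of an annotated gene end. All 6 genes had such an end peak, as did 47.0% of protein-coding genes. Over all protein-coding gene windows the share was 62.8%, with 40841 of 65001 peaks. The remaining 14 peaks lay inside SREBF2, INSIG1 or FDFT1. The table of genes gives no strand, so an end is named here by its coordinate and not as start or stop of transcription. HMGCS1, SQLE, CYP51 and SREBF2 had end peaks only at the end with the higher coordinate, and FDFT1 only at the lower one. INSIG1 had them at both ends. Among protein-coding genes over 2000 bp with any end peak, 5.20% had peaks at both ends, and 4.86% of those with end peaks in at least 5 libraries.

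**Figure D1:**
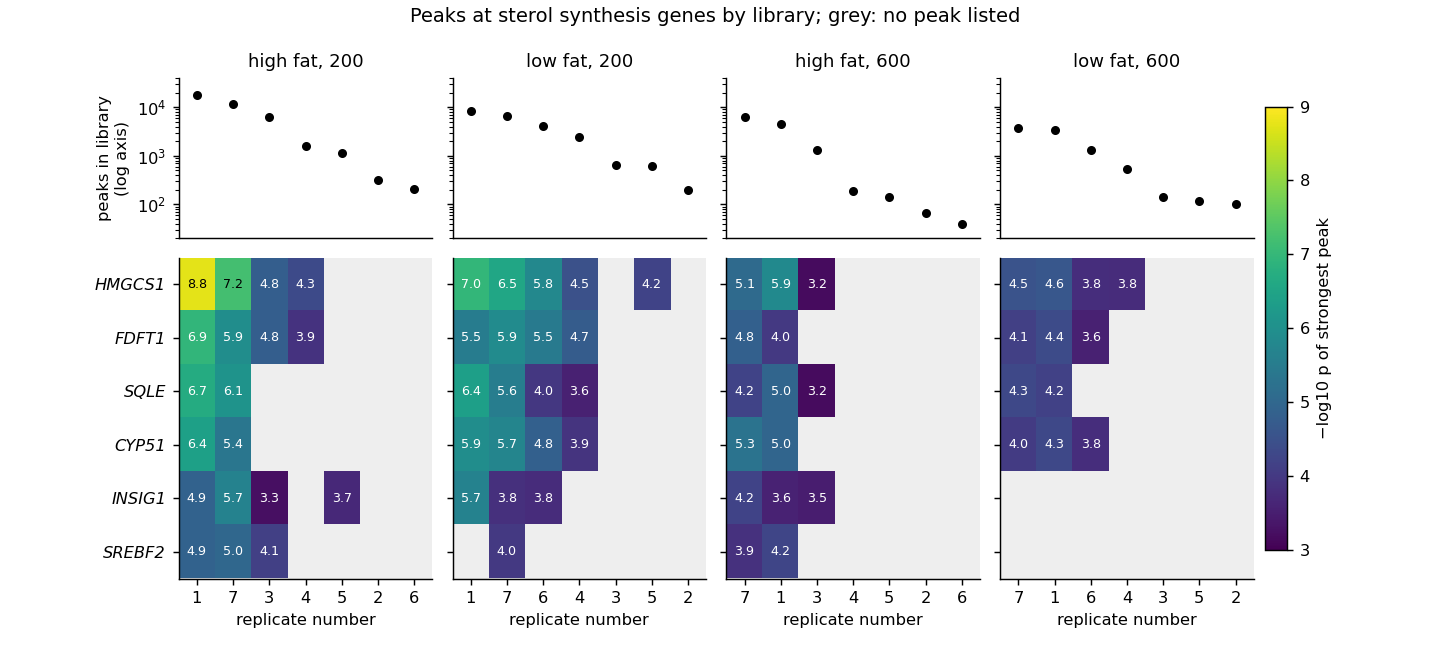
Each coloured cell is a library that lists the gene, with the deposited −log10 p of its strongest peak there; grey cells are libraries without a listed peak, and the dots above give the peak number of each library on a log axis. Libraries are sorted by peak number within each of the 4 groups, and listing is densest on the left, with HMGCS1 in 16 libraries and SREBF2 in 6.

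HMGCS1 encodes the cytosolic synthase that forms HMG-CoA at the entry of the mevalonate route. Its single site lay on chromosome 16 from 27956753 to 27958100, at the higher end of the gene (27936225 to 27957261). Peak centres fell between 22 bp inside and 255 bp outside that end, with a median of 109 bp outside, and all 16 peaks shared a core of 254 bp. The lncRNA gene LOC106508153 has its nearer end 168 bp beyond HMGCS1 and 3 bp from the middle of the site. All 16 peaks spanned the lncRNA end and 15 of them also the HMGCS1 end, the exception being high fat 200 replicate 4. The peak therefore cannot be given to HMGCS1 alone.

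Strength is given as the −log10 p that the authors' peak caller wrote for each peak, which also carries the unknown depth of the library. In high fat 200 the HMGCS1 peak had 8.76, 4.80, 4.34 and 7.22 in replicates 1, 3, 4 and 7. In low fat 200 it had 6.98, 4.49, 4.21, 5.79 and 6.54 in replicates 1, 4, 5, 6 and 7. The fat groups overlapped, with high fat replicate 1 highest of all and high fat replicate 4 second lowest. In high fat 600 the values were 5.86, 3.17 and 5.07 in replicates 1, 3 and 7. In low fat 600 they were 4.63, 3.75, 3.79 and 4.53 in replicates 1, 4, 6 and 7. Again the fat groups overlapped, since high fat replicate 3 was the lowest and high fat replicate 1 the highest.

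Ranked within its own library, the HMGCS1 peak stood high. Its median percentile was 93.4 over the 9 listing 200 libraries (66.5 to 98.7) and 71.3 over the 7 listing 600 libraries (26.9 to 94.1), where 100 is the strongest peak of the library. Over all 16 the median was 84.2, at or above that of 87.2% of the 5263 protein-coding genes listed in at least 5 libraries. HMGCS1 was also the only one of the 6 genes listed in a library of under 1000 peaks. Those libraries were low fat 600 replicate 4 with 526 peaks and low fat 200 replicate 5 with 617.

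FDFT1 is squalene synthase, which joins farnesyl diphosphate into squalene and commits the route to sterols. Its end site lay on chromosome 14 from 14975452 to 14976771, at the lower end of the gene (14976259 to 15010701), and was listed in 13 libraries. Centres fell 78 to 311 bp outside that end, and no other gene end lay within 1000 bp of the site's middle. In high fat 200 the −log10 p was 6.94, 4.80, 3.88 and 5.94 in replicates 1, 3, 4 and 7, and in low fat 200 it was 5.53, 4.74, 5.47 and 5.89 in replicates 1, 4, 6 and 7. The low fat values lay within the range of the high fat ones. In high fat 600 it was 4.00 and 4.84 in replicates 1 and 7, and in low fat 600 it was 4.37, 3.56 and 4.13 in replicates 1, 6 and 7. The 600 fat groups overlapped as well.

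A second FDFT1 site lay inside the gene from 14982444 to 14983880, with a median of 6772 bp from the lower end. It was listed in 7 libraries, high fat 200 replicates 1 and 7, low fat 200 replicates 1, 6 and 7, high fat 600 replicate 7 and low fat 600 replicate 1. The −log10 p was 4.88 and 5.81 in the high fat 200 libraries and 5.38, 4.52 and 4.83 in the low fat 200 ones. In the 600 libraries it was 3.61 for high fat and 3.57 for low fat. Each of these libraries also listed the end site. It was the only site of the 6 genes more than 1000 bp from a gene end in every library that listed it, with more than 1 such library. A further site, 12428 bp from the higher end, was listed in high fat 200 replicate 7 alone.

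SQLE, the squalene epoxidase, catalyses the first oxygenation of the sterol branch. Its site on chromosome 4 from 14699133 to 14700807 lay on the higher end of the gene (14669789 to 14700152), with centres from 182 bp inside to 102 bp outside. The nearest other gene end was that of ZNF572, 15824 bp from the SQLE end. In high fat 200 the −log10 p was 6.68 and 6.07 in replicates 1 and 7, and in low fat 200 it was 6.40, 3.56, 3.98 and 5.55 in replicates 1, 4, 6 and 7. Low fat replicate 1 fell between the high fat libraries, and the other low fat libraries lay below both. In high fat 600 it was 4.96, 3.17 and 4.20 in replicates 1, 3 and 7, and in low fat 600 it was 4.15 and 4.30 in replicates 1 and 7. The 600 fat groups overlapped. The percentile within the library ranged from 5.82 in low fat 200 replicate 4 to 91.9 in low fat 200 replicate 1.

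CYP51 is the lanosterol demethylase, a cytochrome P450 that acts after the ring system has closed. Its main site on chromosome 9 from 72078470 to 72080147 lay at the higher end of the gene (72057506 to 72079587), with centres 99 to 443 bp inside. The lncRNA gene LOC102158687 has its nearer end 142 bp beyond CYP51, so here too the peak touches a pair of gene ends. In high fat 200 the −log10 p was 6.40 and 5.35 in replicates 1 and 7, and in low fat 200 it was 5.93, 3.91, 4.83 and 5.73 in replicates 1, 4, 6 and 7. In high fat 600 it was 4.96 and 5.28 in replicates 1 and 7, and in low fat 600 it was 4.30, 3.79 and 4.04 in replicates 1, 6 and 7. The 200 groups overlapped. The 600 groups did not, with both high fat values above the 3 low fat ones. Both high fat libraries also had more peaks (4455 and 6453) than the low fat ones (3332, 1325 and 3775). The part of yield in this separation was not tested. How many of all genes separate in this way was not counted, so it is not read as a fat difference at CYP51. A narrow second peak of 302 bp lay 739 bp outside the gene end in low fat 200 replicate 1.

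**Figure D2:**
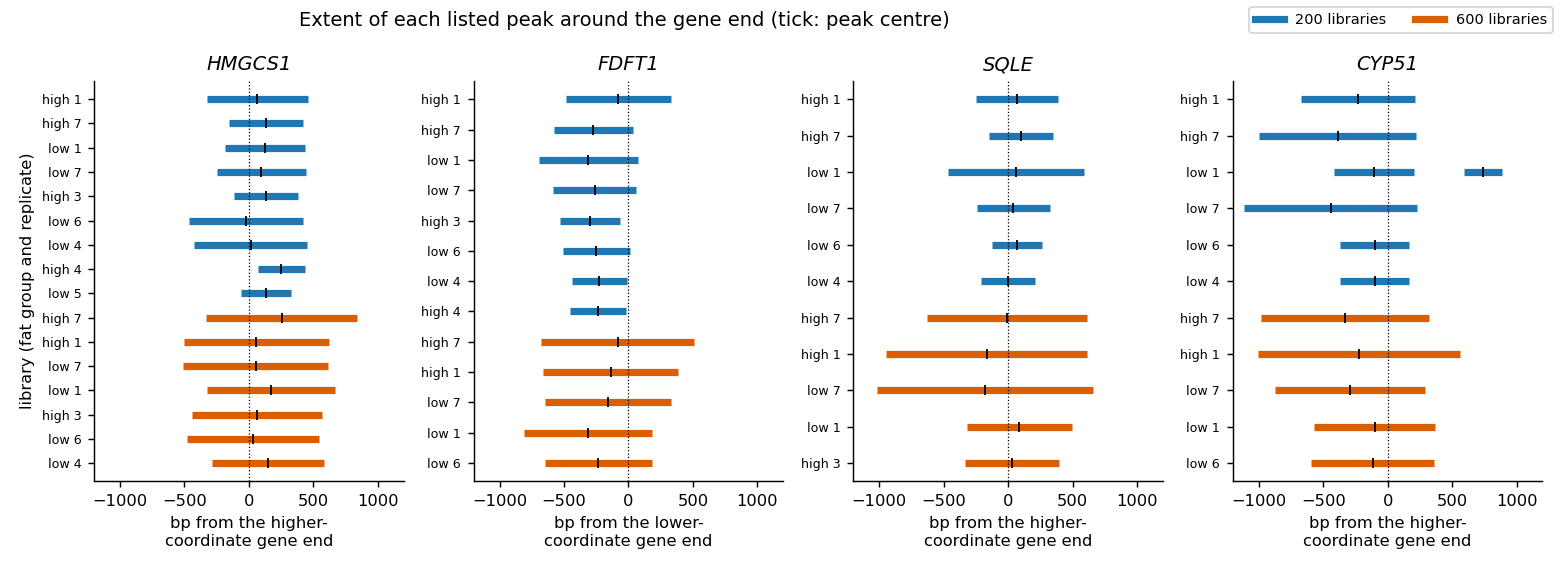
Bars show the extent of each listed peak near the gene end, in bp from that end, for HMGCS1, FDFT1, SQLE and CYP51, with the tick at the peak centre; rows are libraries, sorted by peak number within the 200 set (blue) and the 600 set (orange). Centres stayed within 443 bp of the gene end apart from the second CYP51 peak at 739 bp, and most orange bars are longer than the blue ones.

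INSIG1 encodes the endoplasmic reticulum protein that retains SREBP precursors when sterols are plentiful, and is itself an SREBP target in human and rodent cells. On chromosome 18 (2885494 to 2898758) its peaks were spread over the gene. A site at the lower end (2883969 to 2885549) was listed in 5 libraries, with centres 431 to 901 bp outside the gene. Without the window limit, the same stretch held peaks of 6 libraries. Within the window, the −log10 p was 3.26 and 4.60 in high fat 200 replicates 3 and 7 and 4.01 in low fat 200 replicate 1. It was 3.57 and 4.20 in high fat 600 replicates 1 and 7. No low fat 600 library listed this site.

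Toward the higher end of INSIG1, chained peaks from 2896886 to 2899516 were listed in 8 libraries. They shared no common stretch, and 7 of these libraries had a peak within 1000 bp of that end. Values near the end were 4.62, 3.70 and 5.66 in high fat 200 replicates 1, 5 and 7. They were 5.67, 3.77 and 3.82 in low fat 200 replicates 1, 6 and 7 and 3.61 in high fat 600 replicate 7. Farther inside, high fat 200 replicate 1 had 4.88 at 1488 bp and high fat 600 replicate 3 had 3.47 at 1443 bp. The 200 fat groups overlapped, and again no low fat 600 library was among those listed. High fat 200 replicate 7 held further peaks 2871 and 3510 bp inside the lower end. INSIG1 was the weakest of the 6 genes by rank within the library, with a median percentile of 42.3, which 18.8% of the 5263 genes did not exceed. The window edge lies close to peaks here, since the farthest peak taken in lay 901 bp outside the gene and the nearest one left out 1123 bp outside (high fat 200 replicate 1).

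SREBF2 encodes SREBP-2, the SREBP that mainly drives cholesterol genes. Its end site on chromosome 5 from 6783947 to 6785355 lay on the higher end of the gene (6719484 to 6784724), with centres from 73 bp inside to 98 bp outside. The nearer ends of CCDC134 and MEI1 lie 1233 bp beyond it. In high fat 200 the −log10 p was 4.88 and 5.00 in replicates 1 and 7, in low fat 200 it was 3.99 in replicate 7, and in high fat 600 it was 4.24 and 3.86 in replicates 1 and 7. No low fat 600 library listed it. The single low fat library lay below both high fat 200 libraries, which hold the most peaks of all. How many of all genes show such an order was not counted. Inside the gene, high fat 200 replicate 3 had a peak 3964 bp and high fat 200 replicate 1 a peak 15666 bp from the lower end.

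Listing of the 6 genes was largely nested. All 13 libraries with FDFT1 also listed HMGCS1, all 11 with CYP51 also listed FDFT1, and all 6 with SREBF2 also listed HMGCS1, FDFT1 and INSIG1. SQLE and CYP51 shared 10 of their 11 libraries. All 6 genes were listed in 5 libraries, the poorest of which had 4455 peaks, and none in 11 libraries, the richest of which had 635. The order of yield did not fix the order of listing entirely. High fat 200 replicate 3, which ranked 6 by peak number with 6288, lacked SQLE and CYP51, while its partner high fat 600 replicate 3 listed SQLE with 1336 peaks. In this library 23.9% of peaks lay within 1000 bp of any gene end, and in its partner 25.4%. Those were the lowest shares among libraries with at least 1000 peaks. Their part in the listing was not tested. Low fat 200 replicate 1, which ranked 3 by peak number, lacked SREBF2, and high fat 200 replicate 5 with 1137 peaks listed INSIG1 but not HMGCS1.

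**Figure D3:**
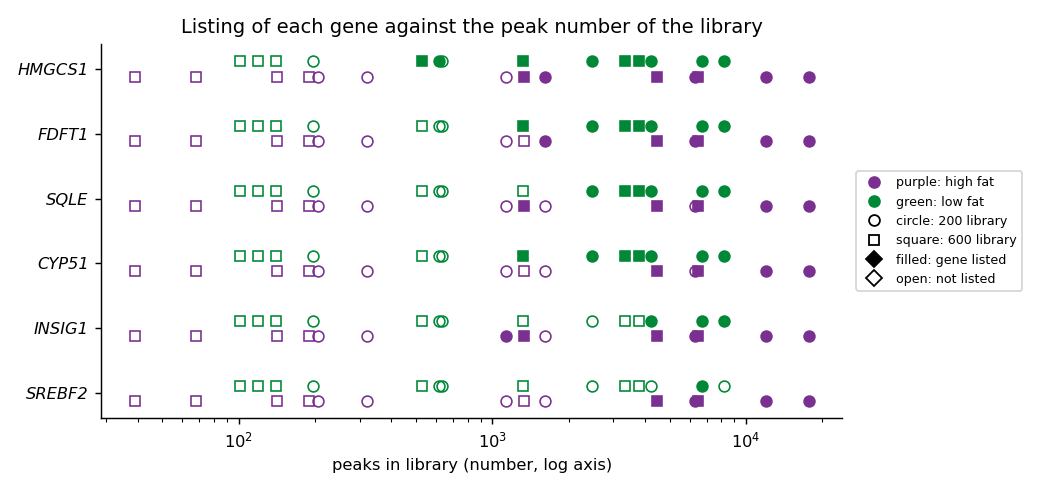
Every library is drawn at its peak number (log axis) for each of the 6 genes, filled where it lists the gene and open where it does not; purple is high fat, green low fat, circles 200 and squares 600. Filled symbols begin at 526 peaks for HMGCS1 and at 4455 for SREBF2.

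The same nesting appears in the genes whose listing over the 28 libraries was most alike by the Jaccard index, the shared libraries divided by all libraries that list either gene. CYP51 had an index of 1 with 89 other genes, in order of symbol AHI1, AKR1D1 and ANKZF1 first. For SQLE it was 1 with 7 genes, DNM3, HSPA5 and KATNAL1 among them. For FDFT1 it was 1 with 16, first ADAM9, ATG10 and CALR, and for SREBF2 with 4, first APBA1, BCL11A and SH2B1. HMGCS1 reached 0.941 with MEX3C, SLAIN2 and UVRAG, which shared all of its 16 libraries and had 1 more. INSIG1 reached 0.909 with IL17B and 0.9 with ARMC9 and RPS13. With so few distinct patterns and libraries of such unequal yield, the index says which genes were listed in the same libraries and no more.

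High and low fat livers, the comparison in the series title, did not differ detectably in the listing of any of the 6 genes. In the 200 libraries HMGCS1 was listed in 4 of 7 high and 5 of 7 low fat livers, FDFT1 in 4 and 4, SQLE in 2 and 4, CYP51 in 2 and 4, INSIG1 in 4 and 3 and SREBF2 in 3 and 1. The smallest unadjusted p among them was 0.559, for SREBF2, and every adjusted p was 1 (Fisher's exact test, two-sided, Benjamini-Hochberg over 6897 genes). Called genes made up 0% of all genes tested, with 3 genes (0.0435%) at an unadjusted p under 0.05. With 7 against 7 the smallest possible p is 0.000583, so a single gene could not have passed over that many genes.

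In the 600 libraries HMGCS1 was listed in 3 of 7 high and 4 of 7 low fat livers, FDFT1 in 2 and 3, SQLE in 3 and 2, CYP51 in 2 and 3, INSIG1 in 3 and 0 and SREBF2 in 2 and 0. INSIG1 had the smallest p, 0.192 unadjusted and 1 adjusted (Fisher's exact test, 3294 genes tested, 0% called, 0 at an unadjusted p under 0.05). SREBF2, in fewer than 3 of these libraries, was not tested. The 3 listing high fat libraries had 4455, 1336 and 6453 peaks, while low fat libraries with 3775 and 3332 peaks did not list INSIG1. The median peak number was 190 in high fat 600 and 526 in low fat 600. The part of yield in the counts was not tested.

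With the 200 and 600 library of a title number joined, HMGCS1 was listed in 4 high and 5 low fat animals, FDFT1 in 4 and 4, SQLE in 3 and 4, CYP51 in 2 and 4, INSIG1 in 4 and 3 and SREBF2 in 3 and 1. The smallest unadjusted p was again that of SREBF2, 0.559, and every adjusted p was 1 (Fisher's exact test, 7219 genes, 0% called, 5 genes or 0.0693% at an unadjusted p under 0.05). The difference of the fat effect between the 600 and 200 sets was tested over the 14 title numbers with an exact permutation test. SQLE had the smallest p, 0.269 unadjusted and 1 adjusted over 7598 genes, of which 0% were called and 10 (0.132%) had an unadjusted p under 0.05.

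Fewer 600 than 200 libraries listed each of the 6 genes, and no difference passed the test. The counts, of 14 libraries each, were 7 against 9 for HMGCS1, 5 against 8 for FDFT1, 5 against 6 for SQLE, 5 against 6 for CYP51, 3 against 7 for INSIG1 and 2 against 4 for SREBF2. INSIG1 had the smallest p, 0.236 unadjusted and 0.755 adjusted (Fisher's exact test, 7598 genes, 0% called, 393 genes or 5.17% at an unadjusted p under 0.05). That test took all libraries as independent and did not use the pairing by title number. An exact sign test within title numbers also called 0 genes. Within title numbers HMGCS1 was listed in both libraries of 7 animals, only in the 200 library of 2 and in neither of 5. FDFT1, CYP51, INSIG1 and SREBF2 likewise had no animal with a 600 listing alone, and SQLE had 1, high fat replicate 3. The direction was not particular to these genes. In every title number the 600 library listed a smaller share of all protein-coding genes than its 200 partner. In high fat replicate 1 the shares were 20.7% against 48.2%, and in low fat replicate 1 they were 16.6% against 32.8%.

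Peaks were compared where the strongest peaks of a gene in the 200 and 600 library of a title number overlapped. The 600 peak was mostly wider and had a lower −log10 p. Other sites shared by a pair were not compared. HMGCS1 peaks were 782, 492 and 575 bp wide in high fat 200 replicates 1, 3 and 7, against 1122, 1008 and 1168 bp in their 600 partners. In low fat 200 replicates 1, 4, 6 and 7 they were 619, 880, 883 and 692 bp wide, against 993, 874, 1020 and 1124 bp. The 600 peak was thus wider in 6 of 7 animals, low fat replicate 4 being the exception, with a median ratio of 1.60. Its −log10 p was lower in 7 of 7, with a median difference of −2.01. FDFT1 peaks were wider in 5 of 5 animals (median ratio 1.50) and had a lower −log10 p in 5 of 5 (median −1.77). CYP51 peaks were wider in 4 of 5 (median ratio 1.53), with low fat replicate 7 narrower, and lower in 5 of 5 (median −1.45).

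SQLE had 4 such animals, with ratios of 2.46, 2.50 and 2.98 in high fat replicates 1 and 7 and low fat replicate 7, while low fat replicate 1 had the narrower 600 peak (0.781). SREBF2 had 2, with ratios of 1.59 and 1.29 in high fat replicates 1 and 7. INSIG1 had none. The widening was not particular to these genes. Over 1023 protein-coding genes with at least 5 such animals, the median of the median ratios was 1.47 and that of the −log10 p differences −1.54. In 65.7% of those genes every 600 peak was wider, and in 83.5% every one had the lower −log10 p.

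**Figure D4:**
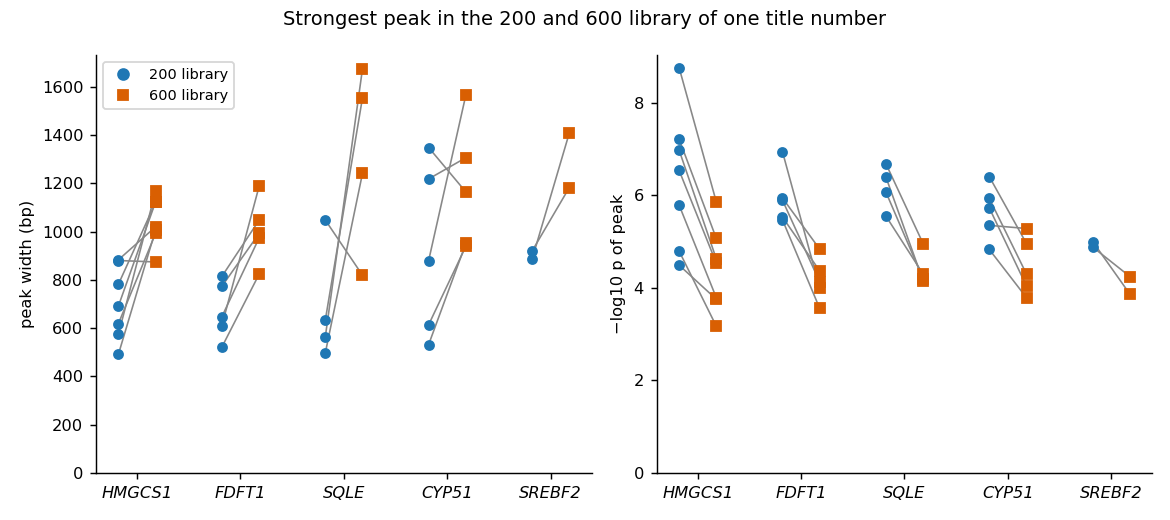
Lines join the strongest peaks of a gene in the 200 (blue circle) and 600 library (orange square) of a title number, where these overlap. Peak width in bp is on the left and deposited −log10 p on the right. Both axes start at 0. For HMGCS1 the 600 peak was wider in 6 of 7 animals and had the lower −log10 p in 7 of 7.

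The rest of the pathway was read from a list of 37 further genes, all of which had coordinates. Of these, 35 had a peak in at least 1 library, against 61.6% of protein-coding genes, and 29 in at least 3, against 39.0%, with a median of 4 libraries over the 37, beside 1 over all protein-coding genes. Each of the 6 genes of the mevalonate and isoprenoid steps had an end peak in at least 1 library, against 47.0% of protein-coding genes. Of these 6 genes, 5 were listed in at least 3 libraries. MVK, the mevalonate kinase, was listed in 8 libraries, ACAT2 in 7, MVD in 4 and FDPS in 3.

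All 9 genes between lanosterol and cholesterol had an end peak in at least 1 library as well, against 47.0% of protein-coding genes. Of these 9 genes, 8 were listed in at least 3 libraries. MSMO1, a methylsterol oxidase, was listed in 19 libraries, more than any other gene of the pathway examined here. HSD17B7 followed with 12, NSDHL and SC5D with 8 each, LBR with 7, EBP with 4 and DHCR7 with 3.

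Regulators had a median of 4 libraries, and 8 of 9 had a peak, against 61.6% of protein-coding genes. INSIG2, the partner of INSIG1, was listed in 12 and the oxysterol receptor gene NR1H3 in 7. SCAP, the escort of the SREBP precursors, was listed in 5, SREBF1 in 4 and MBTPS1, a protease that cleaves those precursors, in 3. SREBF1 had an end peak in only 1 of its 4 libraries. NR1H2 had no peak.

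Of 13 uptake and transport genes 12 had a peak, against 61.6% of protein-coding genes. STARD4, a carrier of cholesterol between membranes, led with 15 libraries, before NPC2 with 13 and NPC1 with 11, whose products export cholesterol from lysosomes. ABCA1, the cholesterol efflux pump, was listed in 10 libraries, none of them with a peak near a gene end. NPC1L1, ABCG5 and ABCG8 were listed in 4 each; the last pair adjoin each other and can share a peak. SCARB1, the HDL receptor, was listed in 3, as was the ubiquitin ligase gene MYLIP, and SOAT1 had no peak. In the comparisons of fat and label 0 of the 29 pathway genes that could be tested passed in either direction, against 0% of all genes. The smallest unadjusted p in 123 tests was 0.0768 (Fisher's exact test), for ACAT2 in 600 against 200 libraries, with an adjusted p of 0.733.

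**Figure D5:**
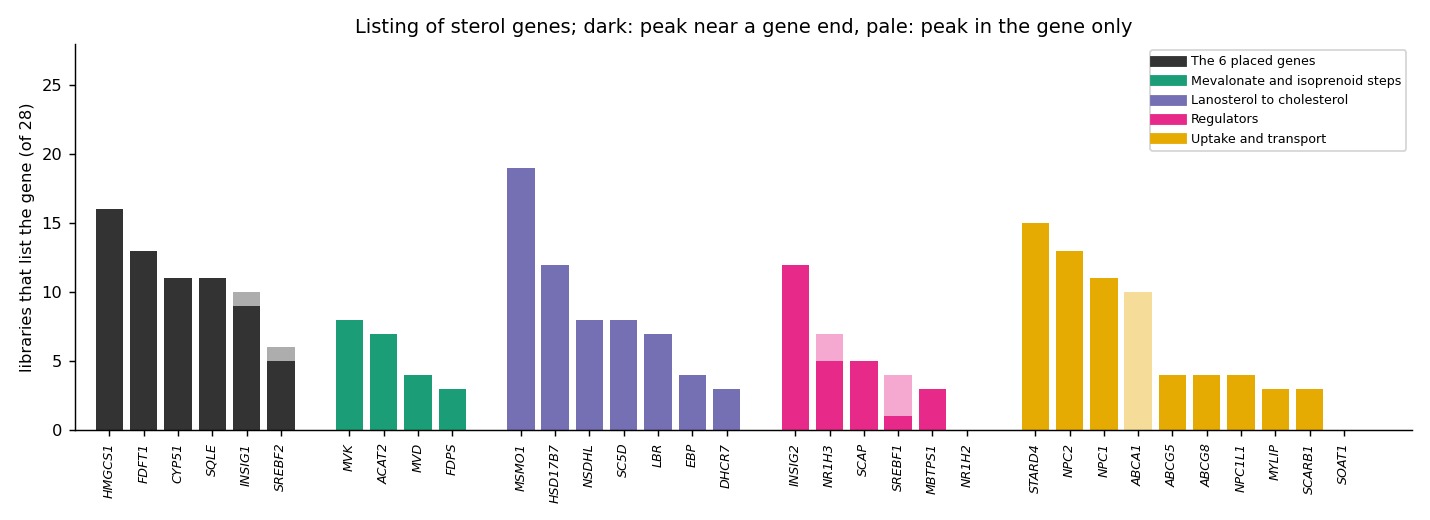
Bars give the number of libraries, of 28, that list each pathway gene named in the text, with the dark part for libraries that have a peak near a gene end and the pale part for those with a peak inside the gene only. MSMO1 with 19 and HMGCS1 with 16 are the highest bars, and ABCA1 with 10 is wholly pale.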

How the data were processed

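Liver ATAC-seq of 28 libraries was deposited as peak lists by library, with 84192 peaks in all on 19 chromosomes. The submitters' processing notes give Genrich, Picard, SAMtools, BWA and FastQC as tools and Sscrofa11.1 as build; roles and versions are not given in the sources used here. Per the file headers, each peak has a position, a signal value (the deposited peak area, 400 or more), a deposited score, the summit offset and a p-value column. The deposited values of that column reach 7880.9, so they are −log10 p. Read depth is unknown, so no count intervals are given. Coordinates are as deposited.

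Listing was tabulated for all protein-coding RefSeq genes. Two-sided Fisher's exact tests were run on genes with peaks in 3 or more libraries, and an exact permutation test for the difference of fat effects. Calls needed a Benjamini-Hochberg adjusted p under 0.05. The tests were also run on simulated data in which planted genes differed strongly whatever the yield of the library. Such data do not show what could be found in libraries of such unequal yield. The Fisher p-values rest on counts of libraries or title numbers that list a gene, taken as independent. They do not measure a spread between replicates and do not allow for unequal yield. Percentiles rank −log10 p within a library, with ties averaged. The genes and lists were chosen with earlier results of these data known. All 8 genes were to be named, with pathway genes listed in at least 3 libraries or in none, and the 3 genes most alike per gene. The pairwise widths were added after the data were seen. Some pathway genes are counted but not reported by name here. Motifs and promoter sequences were not used here. Tests ran in scipy 1.17.1 under Python 3.11.15, tables in pandas 2.3.3 and numpy 2.4.6, and plots in matplotlib 3.10.9.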

Additional observations from a re-analysis of the deposited data

Results flagged for a closer look

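Among 36 sets of values from the libraries of a group, 4 values stood apart from the rest of their set by Dixon's test, where chance flags about 1 in 20. The HMGCS1 peak of high fat 200 replicate 4 ranked at percentile 79.9 of its library, below 95.8, 96.0 and 98.7 in replicates 3, 7 and 1. The CYP51 peak of low fat 200 replicate 7 was 1348 bp wide, against 614, 532 and 532 bp in replicates 1, 4 and 6. The strongest INSIG1 peak of high fat 200 replicate 7 was 1727 bp wide with a deposited signal of 2405, against widths of 408 to 627 bp in the other 3 listing libraries of the group. Its width and its signal were both flagged, so those values come from the same peak. The compared peaks lay at different places. That of replicate 3 was at the lower end and that of replicate 1 lay 1488 bp inside the higher end, where replicate 1 also had a peak of 926 bp near the end. Causes were not tested.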

How the results depend on the processing

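No gene passed in any of the 5 comparisons with peaks above the median strength of their label, genes listed in at least 1 library, gene ends only, libraries with at least 1000 peaks, or any library left out (lowest 0, highest 0 called). In the fat comparisons Fisher's exact test of 7 against 7 cannot go below p = 0.000583, and fewer libraries raise that floor. A single gene could not pass over so many genes, so there these counts say little about stability. Regions in place of genes gave 42 calls among 8592 regions in 600 against 200 libraries with an overlap of 1 bp and 45 with 50% of the shorter peak, and 0 in the other comparisons. None of the 8 regions at the sterol genes was among the 42 (smallest adjusted p 0.772, Fisher's exact test), which at so low a share called says nothing particular about them; the cause of the calls was not tested. With the replicate block 0 genes were called in every comparison. In the fat comparisons that block paired high and low fat libraries of the same replicate number. These have different title numbers, and the labels do not pair them. The exact sign test over 7 pairs cannot go below p = 0.0156, so in the fat comparisons that count says nothing about stability. The numbers were not shown to pair the libraries: deviations from group means correlated above 0.1 in 12 of 14 title numbers (0.0420 to 0.725), and 5 of the 14 libraries of the 600 set were closest to their own number. High and low fat libraries of the same replicate number correlated above 0.1 in 5 of 7 pairs of the 200 set. In the 600 set 6 of 7 pairs did. In each set 2 of 7 were closest to the library of the same replicate number. All 6 genes kept a peak under windows of 500, 2500 and 5000 bp. With the 1000 strongest peaks per library 5 genes kept one, HMGCS1 in 13 libraries, FDFT1 in 5, CYP51 in 4, SQLE in 3, INSIG1 in 2 and SREBF2 in 0. With peaks above the median strength INSIG1 was left in 4 libraries. In the top decile of strength 4 genes kept a peak. There HMGCS1 was listed in 5 libraries, SQLE in 2, CYP51 and FDFT1 in 1 each and INSIG1 and SREBF2 in 0.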
